A study of Mus musculus with 28 samples.

Results

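The contacts of 1 insertion site near Gria1 were compared between mouse embryonic stem cells (ESC) carrying a CpG island (CGI) at that site and wild-type (WT) cells. The pair was taken by title: 1 CGI library and 1 WT library, 2 of 13 libraries with values and of 28 samples listed for the series. The assay was 4C-seq, or circular chromosome conformation capture followed by sequencing. In it crosslinked chromatin is cut and religated, and every fragment joined to 1 chosen fragment, the viewpoint, is amplified by inverse PCR and sequenced. Here NlaIII was the first enzyme and DpnII the second.

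Both libraries came from the E14Tg2a line at day 0, before any differentiation. The labels give the cells as 2i+LIF ESC, whereas the growth protocol describes medium with serum and LIF. The WT cells carried no insert, and the CGI cells carried the CGI of the poised enhancer of Sox1 (PE Sox1) knocked into the topologically associating domain (TAD) of Gria1. A pair of further lines carried other parts of the same enhancer at the same site: its transcription factor binding sites (TFBS), or both parts together (TFBS+CGI). The sources used here do not give the length of the insert, whether each line is 1 clone, or whether 1 or both alleles carry the insert. Positions are those of mm10 without the insert, so true distances across the insert are longer in CGI by its length. Reads of the inserted sequence itself map to its native copy near Sox1, not to the insertion site.

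Gria1 encodes an AMPA-type glutamate receptor subunit of neurons. Poised enhancers are regulatory elements of developmental genes that are already bound by factors and by Polycomb proteins in ESC but are not yet active, and many lie beside a CGI. CGI are stretches rich in CpG dinucleotides that are usually unmethylated and can recruit Polycomb and Trithorax-type proteins. Contact frequency in 4C-seq falls with distance from the viewpoint, and each fragment is read out only through the ligation products that were amplified.

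The fragment with most reads was the same in both libraries and was taken as the viewpoint. It is chr11:56910361-56910414, 54 bp long, in no gene and 101.2 kb before the annotated start of Gria1 (chr11:57011571-57330244). Distances below are signed: positive values lie towards Gria1 and beyond it, the Gria1 side, and negative values on the opposite side. The viewpoint fragment held 6870941 reads in WT and 6152736 in CGI.

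The CGI library stood apart from the rest of the series in how its reads were spread. Its total was 6373936 reads and that of WT 7585737, within the 1023252 to 7730539 reads of the libraries other than CGI. The viewpoint fragment alone took 96.5% of reads in CGI, against 90.6% in WT and 35.2% to 91.0% in the other 12 libraries. Local reads, meaning those within 1 Mb of the viewpoint with 10 kb on each side left out, numbered 51943 on 544 fragments in CGI and 101121 on 720 fragments in WT. They made up 0.815% of the CGI library and 1.33% of WT, and the other 12 libraries had 61288 to 1211752 local reads on 720 to 2229 fragments. CGI was thus the lowest of the 13 libraries in local reads and in local fragments. All shares below are of local reads. With 1 library per genotype there is no replicate, no test between genotypes and no p-value. The 95% intervals given are Wilson intervals for shares and exact conditional intervals for log2 ratios. They cover counting error only, since PCR reads without molecular identifiers are not independent molecules.

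Local reads of CGI were concentrated on few fragments. The tallest local fragment held 21.7% of local reads in CGI and 3.70% in WT. The 10 tallest held 68.9% in CGI and 24.2% in WT, a log2 ratio of 1.51 (1.49 to 1.54). In the other 12 libraries the 10 tallest held 4.80% to 24.2%, so WT was the most concentrated of these 12 and CGI lay beyond it. In CGI 5 fragments reached 50% of local reads, against 32 in WT, 48 in TFBS and 61 in TFBS+CGI. The effective number of fragments, the inverse of the sum of squared shares, was 12.8 in CGI and 85.8 in WT. Among the other 12 libraries its range was 85.8 to 771.2. Fragments with at least 0.1% of local reads, called tall here, numbered 77 in CGI and 136 in WT, and held 92.8% and 88.7% of local reads.

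**Figure D1:**
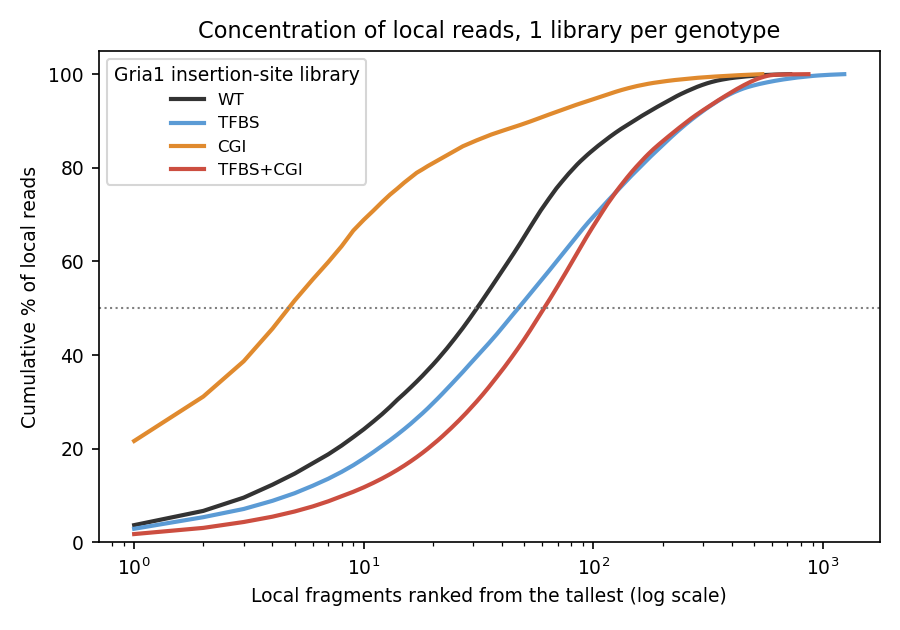
Cumulative percent of local reads (vertical axis) against local fragments ranked from the tallest (horizontal axis, log scale) in the 4 Gria1 insertion-site libraries, 1 line per library, with the dotted line at 50%. The CGI line starts at 21.7% and passes 50% at 5 fragments, whereas the WT line starts at 3.70% and passes it at 32.

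The tallest CGI fragments were mostly without reads in WT. The tallest, chr11:57066341-57066442 (102 bp, at 155.9 kb), lies within Gria1, 54.8 kb past its start. It had 11254 reads in CGI, 0 in WT, 12 in TFBS and 86 in TFBS+CGI. It was thus high in CGI alone, and the 0 in WT allows a share of up to 0.00297% there. The next, chr11:56944300-56944342 (43 bp, at 33.9 kb), is in no gene and had 4928 reads in CGI (9.49%), 0 in WT, 5 in TFBS and 48 in TFBS+CGI. A further pair in Gria1, at 244.3 and 309.2 kb, had 1203 and 1743 reads in CGI and 0 in WT. These 3 fragments within Gria1 and that at 33.9 kb share the pattern of over 1000 reads in CGI with none in WT.

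On the opposite side the same pattern held for the fragments at -242.7 kb (1905 CGI reads), -354.9 kb (1751) and -718.8 kb (2354), each with 0 reads in WT. None of these lies in a gene. The fragment at -718.8 kb, chr11:56191396-56191551, has Nmur2, a neuromedin U receptor gene, as its nearest protein-coding gene at 150.4 kb. In TFBS and TFBS+CGI the 3 fragments had 6 to 18 reads each, so they too were high in CGI alone. In all, 7 of the 10 tallest CGI fragments had 0 reads in WT. This is near the wider share, since only 26 of the 100 tallest CGI fragments had reads in WT. The lack of WT reads was thus not particular to the 10 tallest.

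The other 3 of the 10 lie near the viewpoint and had reads in WT. At -35.1 kb, chr11:56874614-56875234 had 3918 reads in CGI (7.54%) and 224 in WT (0.222%), and was higher in CGI. At 13.1 kb, chr11:56923497-56923677 had 3605 reads in CGI and 1 in WT, but 2362 in TFBS+CGI and 53 in TFBS. It was thus high in CGI and TFBS+CGI and near 0 in WT. At 13.4 kb, chr11:56923789-56923897 had 3132 reads in CGI, 2866 in WT, 1392 in TFBS and 3412 in TFBS+CGI. That fragment was high in all 4 libraries and was the only one in both lists of 10.

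Of the 10 tallest WT fragments, all but that at 13.4 kb, which was high in both, had in turn far fewer reads in CGI. The tallest, chr11:56678461-56678557 (97 bp, at -231.8 kb), had 3736 reads in WT (3.70%) and 7 in CGI. The second, at 680.6 kb, had 3075 in WT and 0 in CGI. Within Gria1, the fragments at 106.8 and 114.9 kb had 2246 and 1888 reads in WT and 2 and 4 in CGI. Of the remaining ones in no gene, those at -211.1, 13.6 and 464.5 kb had 1693, 2397 and 1913 reads in WT and 2, 2 and 3 in CGI. Those at -12.4 and -16.4 kb had 1833 and 2789 in WT and 79 and 31 in CGI. With 0.152% of local reads, that at -12.4 kb was still tall in CGI. So 9 of the 10 had reads in CGI, with a median of 3.5 reads per fragment, while 3 of the CGI library's 10 had reads in WT, with a median of 0. Among the 100 tallest of each, 60 of WT had reads in CGI and 26 of CGI had reads in WT.

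In both libraries 6 of 10 lay on the Gria1 side and 4 within 100 kb. In Gria1 lay 3 of the CGI 10 and 2 of the WT 10, and the rest were in no gene. The median length was 105.5 bp in CGI and 127 bp in WT, with ranges of 42 to 735 bp and 67 to 803 bp. Over all local fragments with reads the medians were 153.5 and 170 bp. Their positions differed: 1 fragment was in both lists.

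Tall fragments were shared between the libraries near the viewpoint and not far from it. Within 10 kb, which the local measure leaves out, 15 fragments were tall in both, 62.5% of the 24 of CGI and 31.2% of the 48 of WT. Tall fragments were also denser there. They made up 24 of 73 fragments with reads in CGI and 48 of 93 in WT, against 77 of 544 and 136 of 720 over the local range. The overlaps given here do not allow for this density. From 10 to 50 kb 4 were shared, 21.1% of 19 in CGI and 11.8% of 34 in WT. Beyond 50 kb 0 were shared, of 58 tall fragments in CGI and 102 in WT. The 4 shared fragments were those at -35.1 and 13.4 kb above, that at -12.4 kb with 79 reads in CGI and 1833 in WT, and that at 10.5 kb with 321 in CGI and 158 in WT. Small overlaps were found between the other libraries too: beyond 50 kb WT shared 1 tall fragment with TFBS and 5 with TFBS+CGI, and TFBS shared 6 with TFBS+CGI. The pair of CGI and TFBS+CGI differed, with 31 shared beyond 50 kb, 53.4% of the 58 of CGI and 21.4% of the 145 of TFBS+CGI. All 31 of these had more than 10 times as many reads in another library of this viewpoint as in CGI, as had 38 of the 42 that CGI and TFBS+CGI shared over the local range. They are thus part of the recurrence described next. Among the 4 fragments that CGI and WT shared, those at -12.4 and 10.5 kb met the same rule. They had 3955 and 3851 reads in TFBS+CGI, against 79 and 321 in CGI. Several of the 15 that CGI and WT shared within 10 kb met it too. The sharing of CGI and WT near the viewpoint thus included such fragments.

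**Figure D2:**
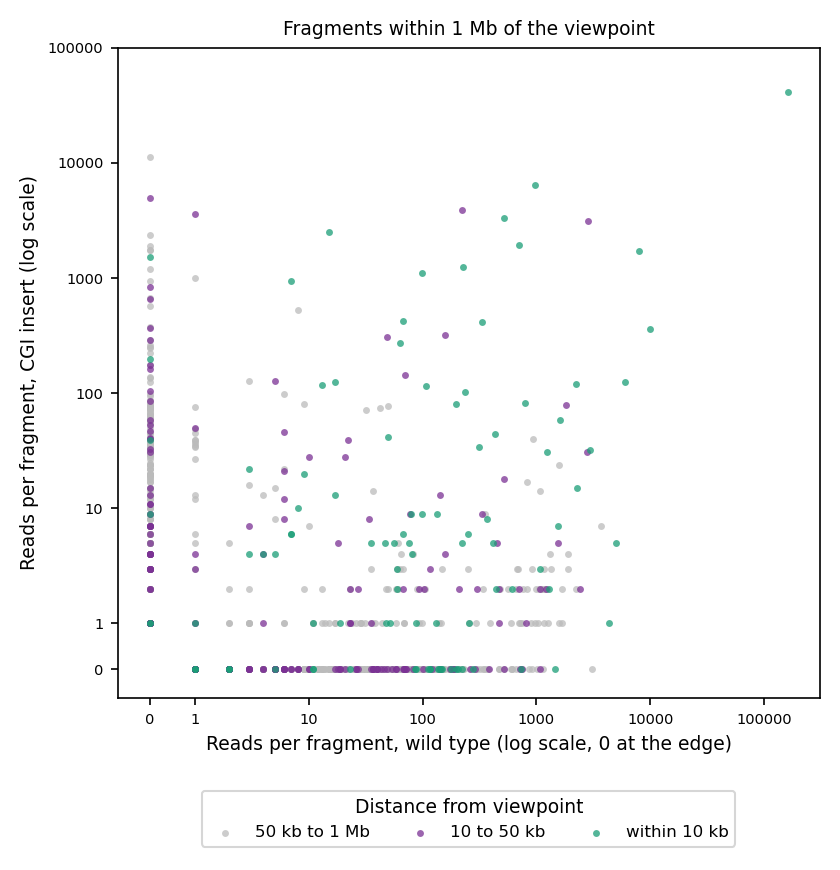
Reads per fragment in CGI (vertical axis) against WT (horizontal axis), both on log scales with 0 at the edge, for fragments within 1 Mb of the viewpoint, coloured by distance, 1 library each. Fragments with over 1000 reads in 1 library lie mostly at few or no reads in the other, and the 4 local fragments tall in both lie within 50 kb of the viewpoint.

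Most local fragments of CGI carried few reads and had far more reads in another library of the same viewpoint. Of its 544 local fragments, 500 (91.9%) had more than 10 times as many reads in at least 1 of WT, TFBS and TFBS+CGI. For 396 of these the highest was TFBS+CGI. These 500 held 6757 reads, 13.0% of local reads of CGI. In WT the same count was 372 of 720 (51.7%), holding 3.96% of local reads, and TFBS was highest for 307 of them. Reads were compared without scaling to depth, and local reads numbered 51943 in CGI, 101121 in WT, 130344 in TFBS and 417180 in TFBS+CGI. These counts thus follow depth in part. By share the fold is smaller where the other library is deeper.

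The recurrence was near a fixed rate for TFBS+CGI. All 100 of its tallest local fragments had reads in CGI, at a median of 1.67% of their TFBS+CGI reads (quartiles 1.32% and 1.97%). Of the 100 tallest WT fragments 60 had reads in CGI, at a median of 0.121% of their WT reads. In the opposite direction, 26 of the 100 tallest CGI fragments had reads in WT. Likewise all 100 tallest TFBS fragments had reads in WT, at a median of 2.93% (quartiles 2.41% and 3.53%). The cause of this recurrence was not tested. Of the 77 tall CGI fragments, 38 had more than 10 times as many reads in another of these libraries. Without such fragments CGI kept 44 local fragments with 45186 reads (87.0%), 23 of them on the Gria1 side, in 22 of the 40 windows of 50 kb described below. WT kept 348 fragments with 96.0% of its local reads, in 39 windows.

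**Figure D3:**
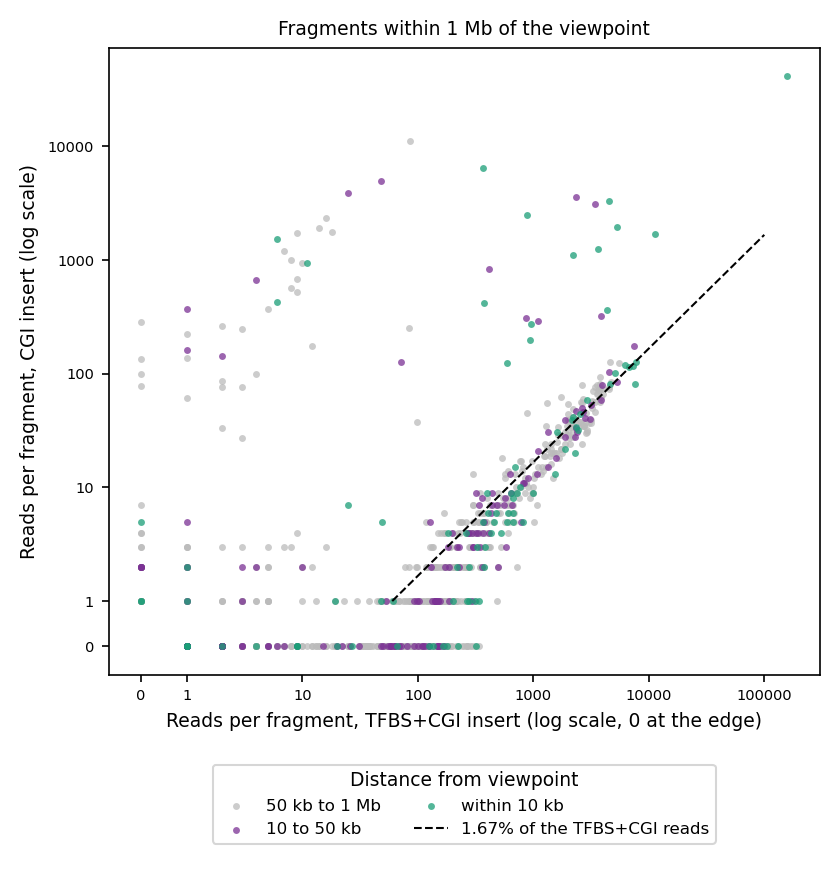
Reads per fragment in CGI (vertical axis) against TFBS+CGI (horizontal axis), both on log scales with 0 at the edge, for fragments within 1 Mb of the viewpoint, coloured by distance, 1 library each. Many fragments follow the dashed line at 1.67% of their TFBS+CGI reads, while the tallest CGI fragments lie far above it.

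The range was next divided into 40 windows of 50 kb, all with at least 20 reads in 1 of the libraries. Shares in CGI were at least 2 times higher than in WT in 8 windows (20% of 40) and at least 2 times lower in 22 (55%), so 75% moved past that fold. With each fragment counted once in place of its reads, 1 of 39 windows was higher and 0 lower, so these calls rest on the heights of fragments. Of the 544 CGI fragments so counted, 500 were the recurrent ones above, which held 13.0% of its local reads. Such a count therefore cannot show that the other CGI fragments were spread as in WT. The same limit applies below wherever fragments are counted in place of reads. TFBS over WT and TFBS+CGI over WT moved past it in 50% of 40 windows each, and TFBS+CGI over TFBS in 40%. CGI over TFBS did so in 64.1% of 39 windows (7.69% higher and 56.4% lower), and CGI over TFBS+CGI in 80% of 40 (15% higher and 65% lower). The comparisons of each insert with WT share the WT library. The median log2 ratio of CGI over WT across windows was -1.12. Over the 40 windows the shares of CGI and WT had a Pearson r of 0.55 and a Spearman rho of 0.52, as a description, since both follow distance. The share of local reads that lay in different windows was 50.0% between CGI and WT, and 25.6% to 30.2% for the 3 pairs without CGI.

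Leaving out tall fragments brought the windows of the libraries nearer to each other. Without the tallest fragment of either library, 8 windows (20%) were at least 2 times higher in CGI and 19 (47.5%) lower. Without the 10 tallest of either, 19 fragments in all, the counts were 10 (25%) and 14 (35%), and the median log2 ratio was -0.17. Pearson r was 0.72 and 0.67 in these cases, and the share of reads in different windows was 42.6% and 34.4%. The set without 19 fragments left 76460 local reads in WT and 16020 in CGI. Shares in each set are of the reads left, so windows that lost no fragment rose more in CGI than in WT. The window from -1000 to -950 kb kept 760 reads in WT and 47 in CGI, yet its log2 ratio went from -3.05 to -1.76. The changes in the median and in the counts thus follow in part from this rescaling.

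**Figure D4:**
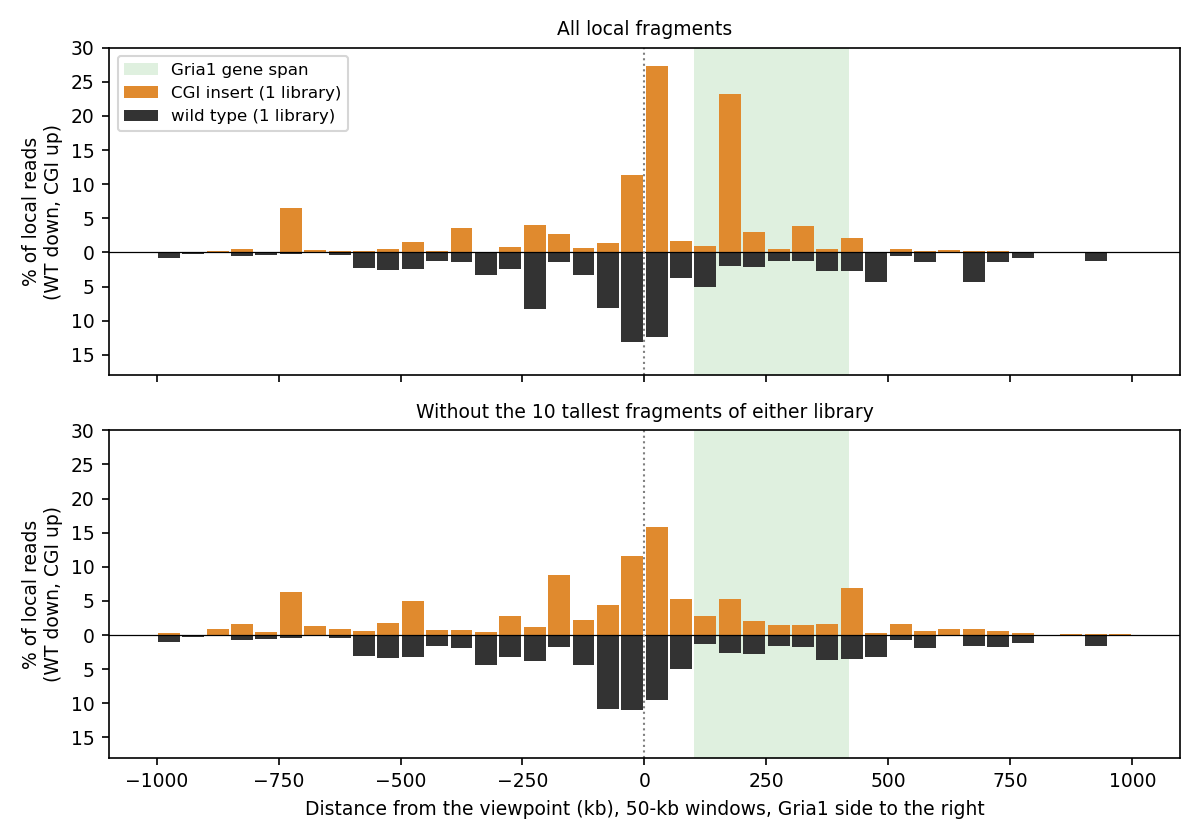
Percent of local reads in 50-kb windows (CGI upward, WT downward) against distance from the viewpoint in kb, with the Gria1 gene shaded, for all local fragments (top) and without the 10 tallest of either library (bottom), 1 library each. The CGI bar at 150 to 200 kb is 23.3% with all fragments and 2.02% in WT, and its log2 ratio falls from 3.53 to 0.98 without the 10 tallest.

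The window from 0 to 50 kb held the largest share of CGI, 27.4% (27.0% to 27.7%) on 54 fragments, against 12.5% (12.3% to 12.7%) on 78 in WT. Its log2 ratio was 1.14, and 1.43 and 0.73 without the tallest and the 10 tallest fragments. As a share of the reads left in each set it thus stayed higher in CGI. Without the 10 tallest it held 2541 reads in CGI and 7333 in WT, so that last value depends on the smaller total left in CGI. The window from -50 to 0 kb held the largest share of WT, 13.1%, and 11.3% of CGI, at a log2 ratio of -0.21. Within 50 kb of the viewpoint CGI was thus higher on the Gria1 side and close to WT on the opposite side, where 1 fragment made up 66.7% of the CGI reads.

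Farther out on the Gria1 side, the window from 150 to 200 kb, inside Gria1, held 23.3% of CGI reads (12096) and 2.02% of WT reads (2044). The tallest fragment made up 93.0% of this CGI value, and without it the log2 ratio went from 3.53 to -0.02 (0.98 without the 10 tallest). The window from 100 to 150 kb, which holds the start of Gria1, was lower in CGI, at 0.880% (457 reads) against 5.04% (5100 reads), a log2 ratio of -2.52. Without the 10 tallest fragments, which took 2 WT fragments out of it, the ratio turned to 1.16. So neither window kept its value in all 3 sets.

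On the opposite side, the window from -750 to -700 kb was the one highest over WT by ratio, with 3374 reads (6.50%) in CGI and 292 (0.289%) in WT. Its log2 ratio was 4.49 with all fragments, 4.79 without the tallest and 4.06 without the 10 tallest. It rested mainly on the fragments at -718.8 and -722.2 kb, and without the 10 tallest on the latter alone. Of the 6 CGI fragments in the window that at -718.8 kb held 69.8% of the reads. Without the 10 tallest that at -722.2 kb held 1005 of the 1020 left, with 1 read in WT. The window from -100 to -50 kb was lower in CGI in all 3 sets, with 700 reads (1.35%) against 8297 (8.21%) in WT and log2 ratios of -2.61, -2.31 and -1.31. The window from -250 to -200 kb held 8.27% in WT and 4.03% in CGI, and its log2 ratios were -1.04, 0.11 and -1.77, so its sign depended on the tall fragments.

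The windows lowest in CGI by ratio had 1 to 45 reads there. That from -950 to -900 kb had 173 reads in WT and 1 in CGI, each on a single fragment. That from 450 to 500 kb had 4360 reads in WT and 45 in CGI, a log2 ratio of -5.64 (-6.10 to -5.21). That from 900 to 950 kb, with Sap30l, which encodes a protein of the Sin3 histone deacetylase complex, and Hand1, a transcription factor gene of heart development, had 1210 and 22 reads. In it 1 fragment held 98.4% of the WT reads. The third window highest in CGI by ratio, from 600 to 650 kb over Fam114a2 and Mfap3, had only 71 reads in WT and 150 in CGI.

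The Gria1 side held 64.7% (64.3% to 65.1%) of local reads in CGI and 47.5% (47.2% to 47.8%) in WT, a difference of 17.2 percentage points and a log2 ratio of 0.45 (0.43 to 0.47). TFBS stood at 47.7% and TFBS+CGI at 49.4%, so CGI was the only one of the 4 libraries above 50%. Without the tallest fragment of either library the shares were 55.0% in CGI and 49.3% in WT, 5.64 points apart. Without the 10 tallest they were 48.3% and 44.0%, 4.28 points apart, so the sign was the same and most of the difference was gone. On the deposited RPM scale, without rescaling to local reads, the Gria1 side was lower in CGI, at a log2 ratio of -0.26. Counted as fragments with reads, 271 of 544 (49.8%) lay on the Gria1 side in CGI and 347 of 720 (48.2%) in WT. Of the tall fragments, 42 of 77 did in CGI and 64 of 136 in WT.

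By distance, CGI held more of its reads at 10 to 50 kb and at 100 to 200 kb and less elsewhere. At 10 to 50 kb the share was 38.7% in CGI and 25.5% in WT. At 50 to 100 kb it was 2.98% in CGI and 12.0% in WT, and at 100 to 200 kb 27.6% and 11.8%. These ranges differ in width. The CGI share was lower at 50 to 100 kb than in either neighbouring range, and in WT the shares at 50 to 100 and at 100 to 200 kb were close to each other. The tallest fragment made up 78.6% of the CGI reads at 100 to 200 kb. Without the tallest fragment of either library that share was 7.51%, against 12.2% in WT. Without the 10 tallest of either it was 19.0% in CGI and 10.1% in WT, so the direction depended on the fragments left out. CGI had 3057 reads at this distance without the tallest and 3051 without the 10 tallest. Its rise in share thus came mainly from fragments left out at other distances, which cut its local reads from 40682 to 16020. At 200 to 500 kb the shares were 20.3% in CGI and 33.4% in WT.

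At 500 to 1000 kb the libraries differed by side. On the Gria1 side CGI held 1.60% (833 reads) and WT 9.77% (9880 reads). On the opposite side CGI held 8.89% and WT 7.54%, and 1 fragment made up 51.0% of that CGI value. The slope of log share per kb on log distance over 5 distance ranges was -0.93 in CGI and -0.79 in WT, and without the 10 tallest fragments -0.79 and -0.73. The slope was steeper in CGI in both cases. The median read lay at 155.9 kb in CGI, which is the place of the tallest fragment, and at 211.1 kb in WT.

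The share within 100 kb was 41.6% in CGI and 37.5% in WT, a log2 ratio of 0.15 (0.13 to 0.17). It turned to -0.56 on the deposited RPM scale and to -0.11 (-0.42 to 0.19) with each fragment counted once. Without the tallest fragment of either library these were 53.2% and 39.0%. Without the 10 tallest they were 37.1% and 36.4%, and the interval of that log2 ratio, -0.01 to 0.07, spanned 0. The difference within 100 kb was thus wider without the tallest fragment and within counting error without the 10 tallest.

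**Figure D5:**
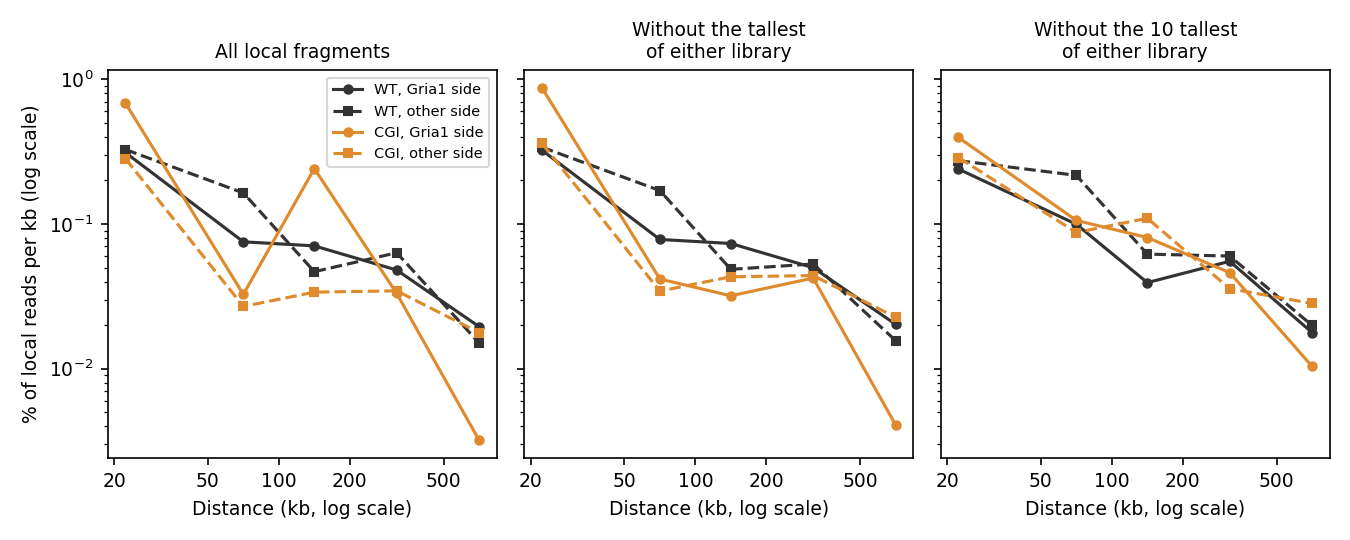
Percent of local reads per kb (vertical axis, log scale) against distance from the viewpoint (horizontal axis, log scale) in 5 distance ranges, for WT and CGI on the Gria1 side (solid) and the opposite side (dashed), with all local fragments, without the tallest and without the 10 tallest of either library. The CGI peak at 100 to 200 kb on the Gria1 side is gone without the tallest fragment, and the low CGI value at 500 to 1000 kb on that side is present in all 3 panels.

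The comparison with the Gria1 gene asks whether the inserted CGI came with more contact of the site with this gene. Over the gene with 5 kb on each side, CGI had 17635 reads on 124 fragments, 34.0% (33.5% to 34.4%) of local reads. WT had 16272 reads on 156 fragments, 16.1% (15.9% to 16.3%). The log2 ratio was 1.08 (1.05 to 1.11), above WT, and it turned to -0.09 without the tallest fragment of either library. Within the gene itself, each library's own tallest fragment, not the same one, held 64.5% of CGI reads and 13.9% of WT reads. With it taken out of that library's gene and local totals, the gene's share was 15.3% in CGI and 14.1% in WT. The higher share over Gria1 with all reads thus rested on 1 fragment of CGI. Without the 10 tallest of either library the log2 ratio was 0.43.

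Along the gene body 33 fragments had reads in both libraries, of 122 with reads in CGI and 153 in WT, and the tallest ones were not shared. The 5 tallest CGI fragments in Gria1 lay 54.8, 84.6, 143.2, 208.1 and 314.7 kb past its start, with 11254, 373, 1203, 1743 and 569 reads, and each had 0 in WT. The 5 tallest WT fragments lay 5.65, 13.7, 251.0, 264.0 and 303.8 kb past the start, with 2246, 1888, 969, 1137 and 1179 reads, and had 0 to 4 in CGI. Among these, WT had a pair near the start of the gene, and the first in CGI lay 54.8 kb in.

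At the Gria1 promoter, taken as 5 kb on each side of the annotated start, reads were few in both libraries at this width. WT had 65 reads on 5 fragments, 0.0643% (0.0504% to 0.0819%), and CGI had 6 reads on 1 fragment, 0.0116% (0.00529% to 0.0252%). The log2 ratio of -2.48 (-3.97 to -1.28) lies on the lower side. All 6 CGI reads, and 37 of the 65 in WT, lay on fragments with over 10 times as many reads in another Gria1 library. TFBS had 1662 reads in the window and TFBS+CGI 996. With 10 kb on each side the shares were 2.49% in WT and 0.0424% in CGI, a log2 ratio of -5.88, and the wider window takes in the WT fragment of 2246 reads that lies 5.65 kb past the start. At this depth the CGI count in the narrower window is close to the 3-read limit of a count of 0, which is 0.00578% of local reads.

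The other 6 protein-coding genes within 1 Mb had few reads in CGI, and most of these lay on fragments far higher in another library. Nmur2, at 869.4 kb on the opposite side, had 144 reads in CGI, 143 of them on such fragments, and 54 in WT. Fam114a2 had 144 reads in CGI, all on such fragments, and 1304 in WT. Galnt10, which encodes a transferase that starts mucin-type O-glycans, had 164 in CGI, 77 of them on such fragments, and 962 in WT. Fam114a2 and Galnt10 were thus lower in CGI and Nmur2 higher, with log2 ratios of -2.22 (-2.48 to -1.97), -1.59 (-1.84 to -1.35) and 2.38 (1.92 to 2.86). In WT 1 fragment held 1074 of the 1304 reads at Fam114a2 and 863 of the 962 at Galnt10. Mfap3, a gene of a microfibril-associated protein that adjoins Fam114a2 and shares reads of its window, had 73 reads in CGI and 55 in WT, and Sap30l had 20 and 13, all of the CGI reads again on such fragments. Hand1 had 0 reads in both, which allows a share of up to 0.00578% in CGI and 0.00297% in WT.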

How the data were processed

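For each library the authors deposited a table of restriction fragments, each with its RPM, a read count scaled to the depth of its library, per the file headers. The submitters' processing notes name HISAT2 and the genome build mm10. The sources used here give neither the version of HISAT2 nor the filters on reads. Every value, 100% in both libraries, was a whole multiple of the smallest one to within 0.1, and dividing by it gave reads per fragment. A count test on these reads was not run, because there was 1 library per genotype. Recovered totals were 7585737 (WT) and 6373936 (CGI).

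Groups came from the sample titles. Shares of local reads were compared by side, distance, fragment and 50-kb window, with and without the tallest fragments, using Python 3.11.15, NumPy 2.4.6, SciPy 1.17.1 and matplotlib 3.10.9. Scripts were tested on simulated data. Genes and their positions were those of RefSeq for GRCm38.p6, the assembly of mm10. Named were all protein-coding genes within 1 Mb, the 10 tallest local fragments of each library, the 5 windows with the largest share in each and the 3 with the most extreme ratio in each direction; other fragments named were chosen after their values were seen. The members and lists were chosen with earlier results of these data known. Leaving out fragments with more than 10 times as many reads in another Gria1 library, unscaled for depth, was chosen after seeing the data. Among the alternatives, capped values were set to at most the 99th percentile.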

Additional observations from a re-analysis of the deposited data

How the results depend on the processing

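Log2 ratios of CGI over WT were, with all local reads, 0.45 for the Gria1 side, 0.15 within 100 kb, 1.51 for the 10 tallest fragments, 1.08 over Gria1 and -2.48 at its promoter, with 8 windows higher and 22 lower. In the same terms, the deposited RPM, which keeps the difference in local depth, gave -0.26 for the side, -0.56 within 100 kb, 0.80 for the 10 tallest, 0.37 over Gria1 and 4 windows higher. As a share of chromosome 11 the side was at 0.43. With 25 kb left out on each side, it was at 0.35, within 100 kb at 0.23 and the 10 tallest at 1.56. Within 500 kb, with fewer windows, these were 0.63, 0.036 and 1.43, with 0.96 over Gria1, 4 windows higher and 11 lower. Without the tallest fragment they were 0.16, 0.45 and 1.45, with -0.091 over Gria1. Without the 10 tallest they were 0.13, 0.026 and 1.10, with 0.43 over Gria1, -1.18 at the promoter and 14 windows lower. Capped fragments gave 0.20 for the side and 0.52 over Gria1. Fragments counted once each gave 0.048 for the side, -0.11 within 100 kb, 0.073 over Gria1, 1 window higher and 0 lower. Windows of 100 kb, which are fewer, gave 2 higher and 9 lower. With 10 kb on each side of the start, the promoter was at -5.88. A further alternative, chosen after seeing the data, left out fragments with over 10 times as many reads in another Gria1 library. It gave 0.49 for the side, 1.65 for the 10 tallest and 1.16 over Gria1. Beyond what these constructions fix, the cause was not tested.

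The sign held in 9 of 10 alternatives for the side, 8 of 10 within 100 kb, 9 of 9 for the 10 tallest, 9 of 9 at the promoter and 9 of 10 over Gria1. At the promoter the main value rested on 6 CGI reads on 1 fragment. Its interval spanned 0 without the 10 tallest (-2.68 to 0.017). It also did with fragments counted once each, at -1.92 (-7.48 to 1.24). Counts of windows were within 1.5 times in 8 of 12 alternatives, higher and lower alike. The promoter had no value with fragments of at least 10 reads or without the recurrent fragments, since CGI then had 0 reads there. No paired analysis was possible because each genotype had 1 library. The 51943 local reads of CGI on 544 fragments, 10 of which held 68.9%, limit what a window or gene can show.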

Other observations

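The concentration of CGI reads on few fragments was also seen outside the local range. On chromosome 11 beyond 1 Mb, CGI had 31396 reads on 297 fragments, of which the 10 tallest held 83.9%, and WT had 58775 on 479, of which the 10 tallest held 27.8%. On other chromosomes CGI had 72642 reads on 1475 fragments and WT 331454 on 4296, and the 10 tallest held 55.0% and 10.2%. In CGI 8 fragments reached 50% of the reads on other chromosomes, and in WT 131 did. Within 10 kb of the viewpoint, leaving out the viewpoint fragment, 1 fragment, the same in both libraries, held most of the reads. Its share was 63.5% of 65219 reads in CGI and 72.7% of 223446 in WT. The 10 tallest there held 95.3% in CGI and 91.7% in WT. These shares rest largely on that fragment, so they do not show that the libraries were alike in the other fragments.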
